A study of Mus musculus with 12 samples.

Results

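The Bergmann glia and astrocyte marker genes described here are 10 named genes, Slc1a3, Slc1a2, Glul, Gja1, Aqp4, Fabp7, Gfap, S100b, Gdf10 and Hopx, out of 54752 genes in the deposited table of read counts. They were picked by symbol as known astroglial markers, with no threshold on their values but with earlier results of these data known, and all 10 were found once in the table and passed the filter on low counts in each comparison. Poly(A) RNA of the cerebellar cortex was sequenced in 12 mice, 4 on each of 3 diets. All 12 were WT males of the strain F1 hybrid C57BL6J/FVB, aged 12 weeks, and 1 library was made per mouse. AL mice were fed ad libitum. DR mice were on dietary restriction, a daily portion smaller than AL mice eat, and by the study's methods they were killed early in the dark period without their last meal, over a window of hours shared with AL mice. KD mice received a ketogenic diet, for which the sources used here give neither the composition nor the hours of dissection. The dissected piece held several folia and no cerebellar nuclei. By the methods, AL and DR libraries came from the RNA samples with the best quality.

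Bergmann glia are the astrocytes of the Purkinje cell layer. Their processes span the molecular layer and wrap the synapses on Purkinje cells, where they take up glutamate, while other astrocytes of the cerebellar cortex lie in the granule cell layer and the white matter. Astroglia of both kinds convert glutamate into glutamine, are coupled by gap junctions, and line blood vessels and the brain surface with endfeet rich in water channels.

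All 10 genes were expressed in every library. Summed over the 10 genes, the level was 3885 to 4039.9 CPM (read counts scaled to a common library size, with TMM factors that set the typical gene equal between libraries) in AL mice, 3569 to 3844 CPM in DR mice and 3702 to 3909 CPM in KD mice. In a piece of tissue, fewer cells of a type and less RNA per cell cannot be told apart, which holds for every value below.

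The sequence before the start of transcription is shown for Fabp7, Gja1 and Hopx, which were lower on DR, and for Glul, which was higher on DR than on KD, so that the letters upstream of genes that moved in both directions can be read side by side. The sequences are from RefSeq on GRCm38.p6, on the strand of the gene and 5′ to 3′, and bases that the table counts as exon were cut. Capitals mark matches, on either strand, to the E-box CACGTG, a part of the ROR and REV-ERB site (AGGTCA), the D-box TTATGTAA, a part of the glucocorticoid receptor site (TGTTCT), the GLI site GACCACCCA, the CCAAT box and the TATA box TATAAA.
Fabp7, chr10:57784673-57784880, + strand: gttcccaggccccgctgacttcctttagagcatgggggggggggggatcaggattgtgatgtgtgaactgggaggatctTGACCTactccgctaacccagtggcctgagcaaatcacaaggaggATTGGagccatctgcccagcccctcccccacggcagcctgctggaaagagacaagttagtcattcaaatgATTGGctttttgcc
Gja1, chr10:56377050-56377299, + strand: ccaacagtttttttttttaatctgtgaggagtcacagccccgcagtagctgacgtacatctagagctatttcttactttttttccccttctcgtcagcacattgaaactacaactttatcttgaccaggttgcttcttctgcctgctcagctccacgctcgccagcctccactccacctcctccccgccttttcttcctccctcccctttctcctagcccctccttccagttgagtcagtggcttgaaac
Hopx, inner start, chr5:77095278-77095517, − strand: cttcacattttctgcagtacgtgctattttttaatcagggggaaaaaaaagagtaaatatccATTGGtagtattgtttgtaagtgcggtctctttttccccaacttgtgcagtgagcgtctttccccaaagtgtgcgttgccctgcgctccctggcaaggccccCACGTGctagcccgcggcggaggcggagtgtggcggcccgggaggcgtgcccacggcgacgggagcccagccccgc
Hopx, outer start, chr5:77115124-77115373, − strand: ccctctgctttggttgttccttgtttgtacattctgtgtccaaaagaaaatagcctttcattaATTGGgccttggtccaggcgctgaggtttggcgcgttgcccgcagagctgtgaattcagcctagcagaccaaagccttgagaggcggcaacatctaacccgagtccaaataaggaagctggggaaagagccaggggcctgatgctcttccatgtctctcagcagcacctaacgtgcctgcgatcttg
Glul, chr1:153899679-153899928, + strand: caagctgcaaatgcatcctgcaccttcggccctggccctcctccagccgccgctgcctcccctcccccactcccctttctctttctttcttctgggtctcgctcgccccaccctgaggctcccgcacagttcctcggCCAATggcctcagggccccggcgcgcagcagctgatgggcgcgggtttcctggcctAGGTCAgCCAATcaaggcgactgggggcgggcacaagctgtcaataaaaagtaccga

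Sequence before RefSeq starts of 9 members was read, in 10 windows of 250 bases, since Hopx has a pair of annotated starts. The windows of Slc1a2 (chr2:102706188-102706437) and Gfap (chr11:102897201-102897450) lie inside the spans that the counts table gives these genes. For both, the bases before the outer end of the gene were not read. Distances run from the RefSeq start to the first base of the match. They include the exonic bases cut from the sequences above, 42 for Fabp7 and 10 for the inner start of Hopx. The letters AGGTCA stood 57 bases before the start of Glul and, on the opposite strand, 171 bases before that of Fabp7, and they also occurred before Gfap. Of 32807 promoters of the same length, 14.03% held them. The E-box stood 86 bases before the inner start of Hopx and in no other member window, and 6.02% of all promoters held one. A CCAAT box, found in 33.8% of all promoters, stood before Glul (113 and 50 bases), Fabp7 (126 and 56 bases) and both starts of Hopx (187 and 188 bases), as well as before S100b and Slc1a3. In Glul a single base separates AGGTCA from the nearer CCAAT box. Matches to TGTTCT (16.1% of promoters) and TATAAA (12.4%) occurred before Slc1a3 and not in the other windows. The D-box (0.817%) and the GLI site (0.226%) had no match in these windows. Those of Gja1, Gdf10 and Slc1a2, the last inside its gene, held none of the 7 motifs. A match is a description of letters, not a site that is used or a cause.

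To compare levels between genes, CPM were divided by the exonic length in the table, in kilobases, to give RPKM. Glul, glutamine synthetase, had the highest level, with a median of 276 RPKM over 12 mice (range 261 to 333). S100b, a small calcium-binding protein also made by other glia, followed at 199 RPKM (156 to 215), and Slc1a3, the glutamate transporter GLAST, at 150.0 RPKM (131 to 159.6). S100b and Slc1a3 overlapped across mice, whereas Glul lay above both in every mouse.

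**Figure D1:**
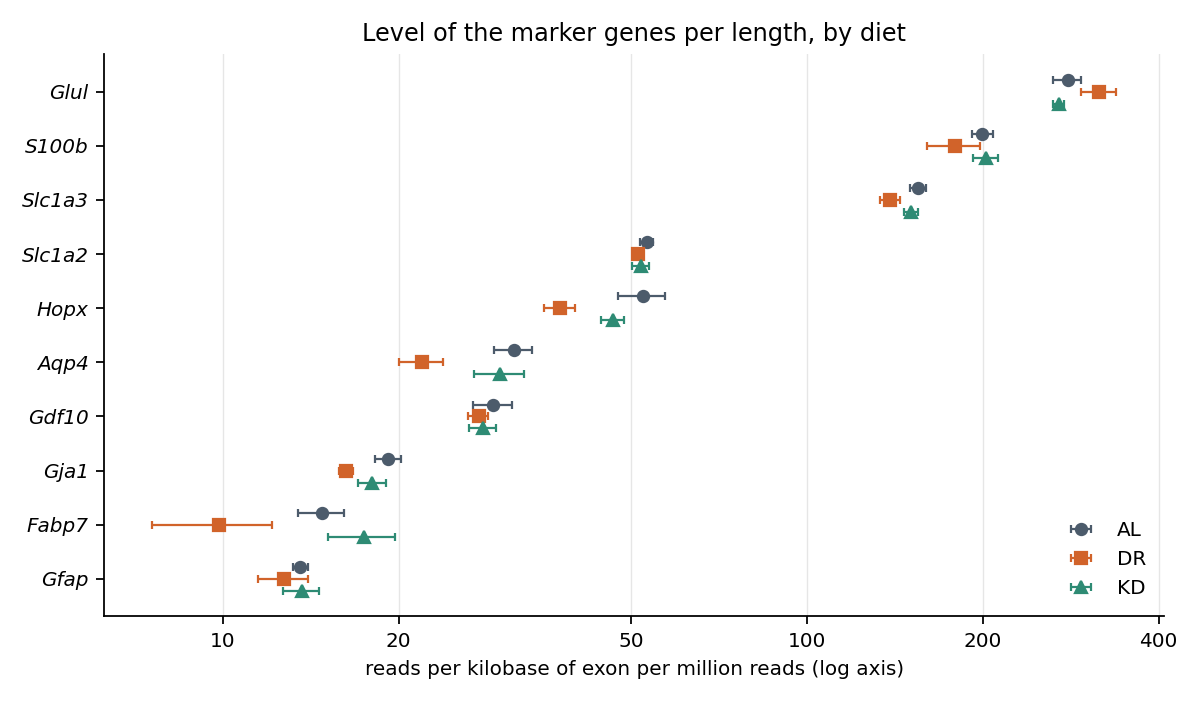
Level of each marker gene in RPKM (log axis) as the mean of 4 mice per diet, with bars of 1 SD; circles stand for AL, squares for DR and triangles for KD. Glul, S100b and Slc1a3 lay above 130 RPKM in every mouse. The DR mean lay to the left of both other diets for every gene except Glul.

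A middle group held Slc1a2, the glutamate transporter GLT-1, at 52.0 RPKM (49.8 to 54.6), and Hopx, at 46.9 RPKM (35.5 to 59.6), whose ranges overlapped. Aqp4 at 28.5 RPKM (20.9 to 34.0) and Gdf10 at 28.1 RPKM (25.9 to 31.0) overlapped as well. Gja1 at 18.0 RPKM (15.9 to 20.6), Fabp7 at 14.3 RPKM (6.72 to 19.8) and Gfap at 13.2 RPKM (11.8 to 15.03) were lowest. Gja1 overlapped with Fabp7 and Fabp7 with Gfap, so the order of these neighbours is not fixed by the data. Slc1a3, at a median of 1281 CPM, took more reads than Glul, at 918 CPM, with exons of 8537 bases against 3323 bases.

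DR against AL is the comparison of the study. On DR, 4 of the 10 marker genes were lower than on AL and none was higher, by the quasi-likelihood test of edgeR, with p adjusted over all genes by Benjamini-Hochberg and 0.05 as threshold. They were Aqp4, Hopx, Gja1 and Fabp7, which fell by between 15.3% and 33.1%. Over all 19052 genes tested, 1.74% were called lower and 3.06% in either direction. The median log2 fold change of the 10 genes was -0.16, against 0.0036 over all genes tested. In 5 of the 10 genes every DR mouse lay below every AL mouse, which held for 5.64% of all genes.

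**Figure D2:**
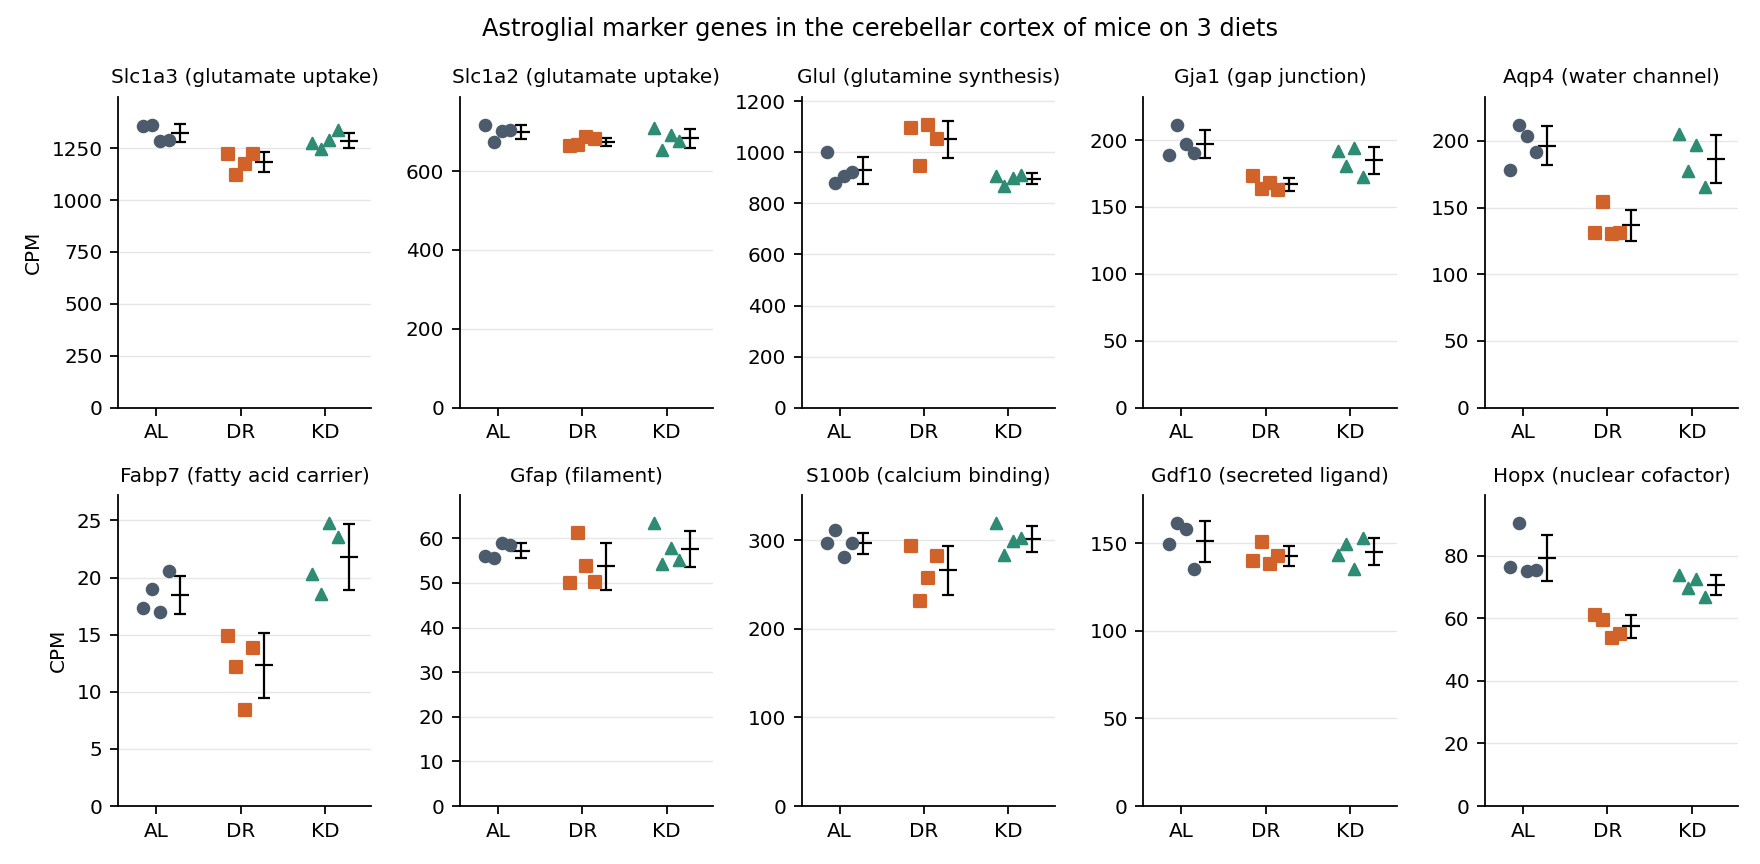
CPM of the 10 marker genes (vertical axis, from 0) in each of 4 mice on AL (circles), DR (squares) and KD (triangles), with the mean and 1 SD beside them. The 4 DR mice lay below the 4 AL mice for Slc1a3, Gja1, Aqp4, Fabp7 and Hopx, and above the 4 KD mice for Glul.

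Aqp4 (ENSMUSG00000024411.10) encodes the water channel aquaporin-4 of astrocyte endfeet. It was at 178, 212, 204 and 192 CPM in the AL mice, at 131, 154, 130.4 and 131 CPM in the DR mice and at 205, 177, 197 and 165 CPM in the KD mice. All DR mice lay below all AL and all KD mice, and DR replicate 2, at 154 CPM, stood above the other DR mice. The mean decreased by 30.4% from AL (196 ± 14.8 CPM, SD, n = 4) to DR (137 ± 11.7 CPM, SD, n = 4). The log2 fold change of -0.52 (95% interval -0.66 to -0.39) gave an edgeR adjusted p of 0.000706, rank 18 by p among all genes, and the call held whichever mouse was left out.

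Hopx (ENSMUSG00000059325.14, chr5:77086988-77115121, − strand) encodes a homeodomain protein that does not bind DNA and marks Bergmann glia. It was at 76.4, 90.4, 75.0 and 75.5 CPM on AL, at 61.1, 59.6, 53.8 and 55.0 CPM on DR and at 73.7, 69.5, 72.5 and 66.6 CPM on KD. The 3 diets did not overlap, with DR lowest and AL highest, and AL replicate 2 stood above the other AL mice. Hopx fell by 27.7% on DR (log2 fold change -0.47, 95% interval -0.60 to -0.33, edgeR adjusted p = 0.00143). Of its exonic bases, 27.2% overlap the antisense gene Hopxos and the library kit does not mark strand, so its counts are uncertain, and Hopxos itself was counted at 0.468 to 1.41 CPM.

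Gja1 (ENSMUSG00000050953.10, chr10:56377330-56402513, + strand) encodes connexin 43, the main gap junction protein of astrocytes. Its level was 189, 211, 197 and 191 CPM on AL, 173, 163, 168 and 163 CPM on DR and 192, 181, 194 and 172 CPM on KD. Every DR mouse lay below every AL mouse, and DR replicate 1 overlapped with the lowest KD mouse. Gja1 fell by 15.3% on DR (log2 fold change -0.24, 95% interval -0.34 to -0.14, edgeR adjusted p = 0.0124), and it passed in all 8 fits that left out 1 mouse.

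Fabp7 (ENSMUSG00000019874.11, chr10:57784881-57788450, + strand) encodes a fatty acid-binding protein of radial glia and Bergmann glia. It had the fewest reads of the 10 genes, with 17.3, 19.0, 16.99 and 20.6 CPM on AL, 14.9, 12.2, 8.40 and 13.8 CPM on DR and 20.3, 18.5, 24.8 and 23.6 CPM on KD. DR mice lay below all others, and the spread among them was the widest relative to the mean (12.3 ± 2.85 CPM, SD, n = 4). Fabp7 fell by 33.1% on DR (log2 fold change -0.58, 95% interval -0.86 to -0.30, edgeR adjusted p = 0.0284). The call was lost in some fits with 1 mouse left out, which also have fewer mice. It was kept in 4 of 8 fits that left out 1 mouse and lost without AL replicate 1 (edgeR adjusted p = 0.0617), AL replicate 2 (0.0728), AL replicate 4 (0.0968) or DR replicate 2 (0.0612), at log2 fold changes between -0.68 and -0.44 over all 8.

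The genes of the glutamate and glutamine cycle did not pass in the quasi-likelihood test of edgeR on AL and DR mice. Slc1a3 (ENSMUSG00000005360.14, chr15:8634124-8710764, − strand) was at 1358, 1363, 1287 and 1289 CPM on AL, 1221, 1121, 1176 and 1220.0 CPM on DR and 1275, 1248, 1289 and 1335 CPM on KD. DR mice lay below all AL and all KD mice, without overlap. The log2 fold change of -0.16 (95% interval -0.26 to -0.06) gave an edgeR adjusted p of 0.0749. With DESeq2 it was 0.00791, and with edgeR on all 12 libraries it was 0.0291, so the call for this abundant transporter depends on the test. The study, with its own edgeR analysis of AL and DR, names Slc1a3 among the abundant genes lower on DR.

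Slc1a2 (ENSMUSG00000005089.15, chr2:102658659-102790784, + strand) was at 717, 674, 702 and 703 CPM on AL, 664, 667, 685 and 680.3 CPM on DR and 709.6, 654, 691 and 676 CPM on KD. The diets overlapped. Its log2 fold change on DR was -0.05, with a 95% interval of -0.14 to 0.04. Glul (ENSMUSG00000026473.15, chr1:153899944-153909723, + strand) was the one member with a positive value. It was at 1001, 881, 909 and 924 CPM on AL, 1096, 948, 1108 and 1053 CPM on DR and 908, 867, 901 and 911 CPM on KD. DR replicate 2 lay below the highest AL mouse, so DR and AL overlapped. The log2 fold change of 0.18 (95% interval 0.06 to 0.30) gave an edgeR adjusted p of 0.107, and of 0.0454 with DESeq2, 0.0497 with all 12 libraries in edgeR and 0.0424 in edgeR without DR replicate 2.

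The remaining members overlapped between DR and AL and did not pass. S100b (ENSMUSG00000033208.7, chr10:76253853-76261159, + strand) was at 297, 311, 281 and 296 CPM on AL, 293, 232, 257 and 282 CPM on DR and 319, 283, 299 and 303 CPM on KD. DR replicates 2 and 3 were lower than every other mouse, whereas replicates 1 and 4 lay among the AL mice, and the log2 fold change of -0.16 (95% interval -0.29 to -0.02) gave an edgeR adjusted p of 0.209. Gfap (ENSMUSG00000020932.14, chr11:102887336-102900912, − strand), the intermediate filament protein of astrocytes, was at 56.0, 55.6, 59.0 and 58.4 CPM on AL, 49.9, 61.2, 53.8 and 50.2 CPM on DR and 63.4, 54.3, 57.7 and 55.1 CPM on KD. DR replicate 2 had the highest Gfap level of AL and DR mice, while the other DR mice lay below every AL mouse. Its log2 fold change was -0.09 (95% interval -0.22 to 0.04). Gdf10 (ENSMUSG00000021943.7, chr14:33923587-33937983, + strand), a secreted ligand of the TGF-beta family made by Bergmann glia, was at 149.7, 161, 158 and 135 CPM on AL, 140.1, 151, 138 and 143 CPM on DR and 143, 149.7, 135 and 153 CPM on KD. All 3 diets overlapped, with a log2 fold change on DR of -0.08 (95% interval -0.20 to 0.03).

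**Figure D3:**
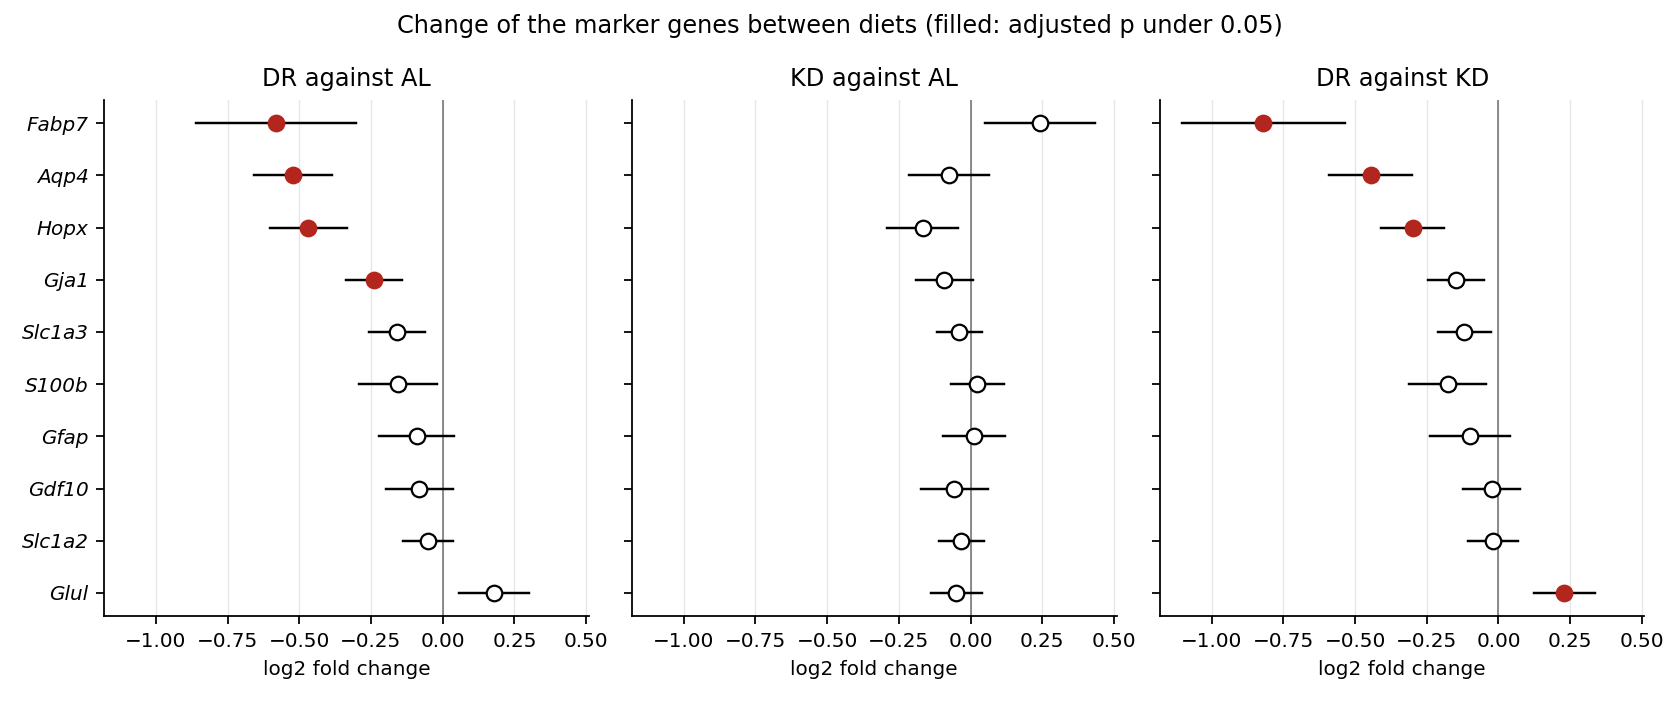
Log2 fold change of each marker gene (horizontal axis) with its 95% interval in 3 comparisons between diets; filled points passed an adjusted p of 0.05 in edgeR's test. Aqp4, Hopx and Fabp7 are filled on the lower side both against AL and against KD, Gja1 only in the comparison with AL and Glul, on the higher side, only in that with KD; whether these differ was not tested. No point is filled for KD against AL.

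KD against AL had no call. Of the 10 marker genes none passed, as did none of 19036 genes tested by edgeR's quasi-likelihood test, while DESeq2 called 10 genes in all and no marker gene. At an unadjusted p of 0.05, 2 of the 10 genes passed against 4.87% of all genes. Hopx was lower in every KD mouse than in every AL mouse (log2 fold change -0.17, 95% interval -0.29 to -0.04, edgeR adjusted p = 0.981) and was the one member of 10 without overlap, which 2.96% of all genes showed. Fabp7 had a higher mean on KD (21.8 ± 2.87 CPM) than on AL (18.5 ± 1.66 CPM, SD, n = 4 each), and the mice overlapped (log2 fold change 0.24, 95% interval 0.05 to 0.43). For the other 8 genes the 95% intervals reached from -0.21 at the lowest to 0.12 at the highest, the range of changes that these mice leave possible.

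In DR against KD, 3 of 10 marker genes were lower and 1 was higher, against 2.43% lower, 2.51% higher and 4.94% in either direction of 19087 genes tested. This comparison has its DR mice in common with the one against AL, so it is not a second sample of DR. Fabp7 was lower on DR by 43.3% (log2 fold change -0.82, 95% interval -1.10 to -0.54, edgeR adjusted p = 0.00217), Aqp4 by 26.6% (log2 fold change -0.45, adjusted p = 0.00131) and Hopx by 18.7% (log2 fold change -0.30, adjusted p = 0.00316). Each was called in all 8 fits that left out 1 mouse. Glul was higher on DR than in every KD mouse, with a log2 fold change of 0.23 (95% interval 0.12 to 0.34, edgeR adjusted p = 0.0141), and lost its call without DR replicate 3 (adjusted p = 0.0559). Gja1 (log2 fold change -0.15, adjusted p = 0.0822), S100b (-0.18, 0.126) and Slc1a3 (-0.12, 0.142, no overlap) did not pass. In 5 of 10 genes DR and KD did not overlap, against 11.8% of all genes.

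The 110 further astroglial genes, grouped by role, moved in both directions on DR. Of 107 tested, 11 were lower and 8 higher than on AL, or 17.8%, against 3.06% of all genes, and their median log2 fold change was -0.03. All lists were chosen with earlier results of these data known, so a share above that of all genes may be built in by the choice. DR against KD gave 12 lower and 16 higher (26.2%, against 4.94%). KD against AL gave none by edgeR and 1 lower and 1 higher by DESeq2. At an unadjusted p of 0.05 in edgeR, 12 were lower and 2 higher, against 4.87% of all genes in either direction. For each role list below, the share of all genes called on DR against AL was 1.74% lower and 1.32% higher.

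**Figure D4:**
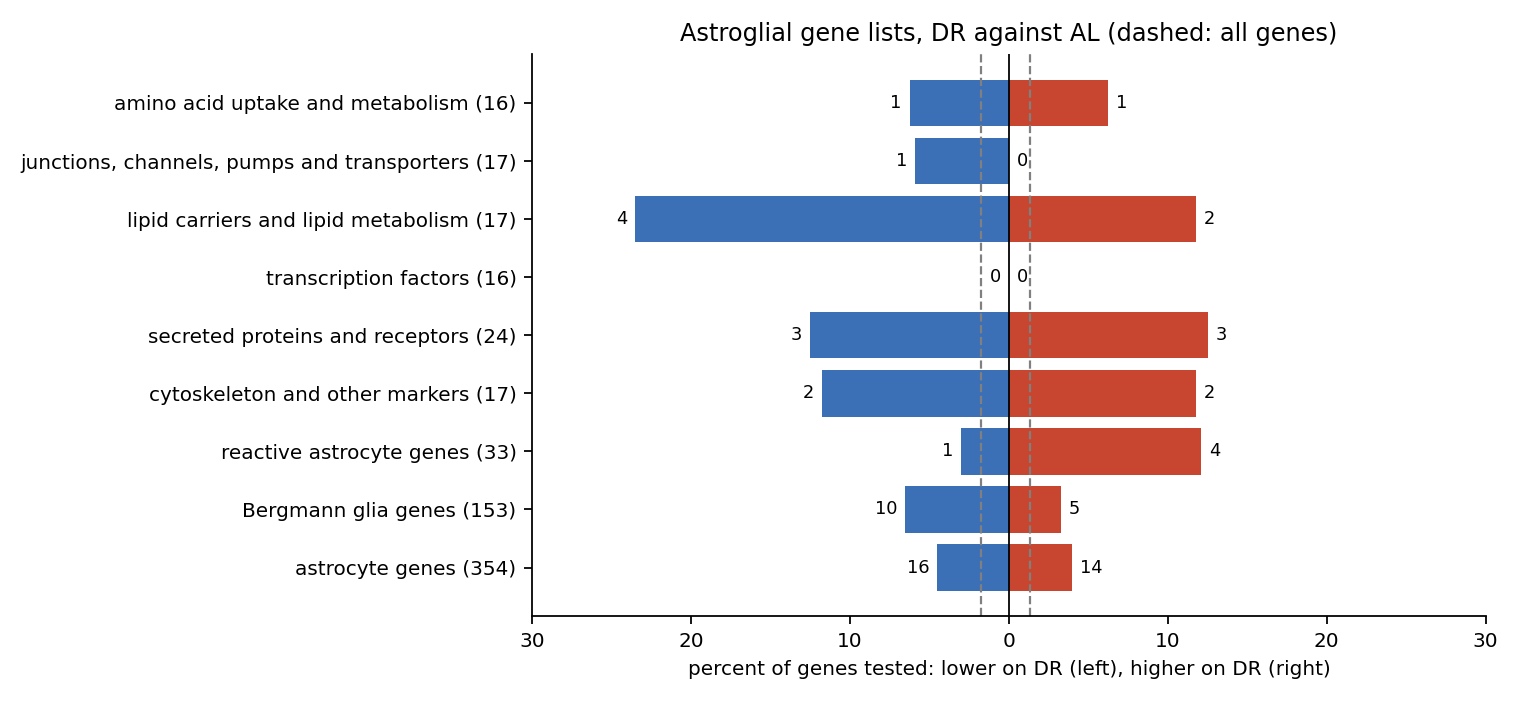
Percent of the tested genes of each astroglial list (number tested in brackets) called lower (left) or higher (right) on DR than on AL, with counts at the bars; dashed lines mark the share over all genes, 1.74% lower and 1.32% higher. Each list except junctions and transcription factors holds calls on both sides. The lists were chosen with earlier results of these data known, so bars beyond the dashed lines are no test.

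Among 16 genes of amino acid uptake and metabolism, the neighbours of Slc1a3 and Glul, 1 was higher and 1 lower. Prodh, which starts the breakdown of proline, rose from 44.6 ± 4.14 to 57.0 ± 4.24 CPM (SD, n = 4 each, log2 fold change 0.35, edgeR adjusted p = 0.0128). Slc7a10, a transporter of small neutral amino acids, fell from 28.01 ± 1.64 to 22.3 ± 0.813 CPM (SD, n = 4 each, log2 fold change -0.33), and 17.9% of its exonic bases overlap another gene. Among 17 genes of junctions, channels, pumps and transporters, beside Gja1 and Aqp4, only the potassium channel gene Kcnj16 passed, with a log2 fold change of -0.25 (edgeR adjusted p = 0.031), and it passed in 2 of 8 fits that left out 1 mouse.

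Among 17 genes of lipid carriers and lipid metabolism, the company of Fabp7, 4 were lower and 2 higher. Elovl2, an elongase of polyunsaturated fatty acids, fell from 34.7 ± 1.21 to 27.4 ± 1.87 CPM, and Lcat, which esterifies cholesterol on lipoproteins, from 44.5 ± 2.09 to 35.4 ± 2.04 CPM (SD, n = 4 each). The cytochrome P450 genes Cyp4f15 and Cyp4f14, of fatty acid hydroxylation, rose by 1.34 and 0.37 on the log2 scale, the first from 1.35 ± 0.100 to 3.43 ± 0.550 CPM (SD, n = 4 each).

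Of 24 genes of secreted proteins and receptors, the class of Gdf10, 3 fell and 3 rose. Tnc, the matrix glycoprotein tenascin-C, had the largest decrease among the called genes of the role lists, from 31.3 ± 3.74 to 13.6 ± 2.16 CPM (SD, n = 4 each, log2 fold change -1.20, edgeR adjusted p = 5.95e-05), and was at 29.1 ± 2.84 CPM on KD. Mfge8, a bridging protein of phagocytosis, fell by 0.45 on the log2 scale, and Ptch1, the receptor of Sonic hedgehog, by 0.20. Sparc, a secreted matrix-binding protein, rose from 718 ± 61.5 to 957 ± 52.1 CPM (SD, n = 4 each), while Itih3 and the coagulation factor gene F3 rose by 0.44 and 0.38 on the log2 scale.

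Of 17 genes of the cytoskeleton and other markers, beside Gfap and S100b, Vim and Dio2 fell and Mt1 and Gstm1 rose. Vim, the filament protein vimentin, was at 142, 151, 124 and 125 CPM on AL and at 90.6, 128, 91.9 and 102 CPM on DR. DR replicate 2 lay among the AL mice, and the log2 fold change was -0.40 (edgeR adjusted p = 0.0327). Dio2, which activates thyroid hormone, fell by 0.42 on the log2 scale. The metallothionein gene Mt1 rose by 0.33 and the glutathione transferase gene Gstm1 by 0.23 on that scale. Among 16 transcription factors, the class nearest to Hopx, edgeR called none against AL. DESeq2 called 1 lower, and 1012 genes in all. At an unadjusted p of 0.05 in edgeR, 2 were lower. Such p-values were common, as S100b with an unadjusted edgeR p of 0.0269 ranked 2451 by p among 19052 genes.

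Of 33 tested genes that rise in reactive astrocytes, Vim was lower on DR and 4 were higher. That is 15.2% in either direction, against 3.06% of all genes. Fbln5, an elastic fibre protein also made by vessel and meningeal cells, rose from 6.40 ± 1.01 to 15.95 ± 2.11 CPM (SD, n = 4 each, log2 fold change 1.31, edgeR adjusted p = 5.95e-05). The complement genes C4b and Serping1 rose by 0.93 and 0.37 on the log2 scale. Fkbp5, a target of the glucocorticoid receptor in many cells, rose by 0.68 and was at 21.0 ± 4.72 CPM on AL, 33.7 ± 6.46 CPM on DR and 12.1 ± 2.18 CPM on KD (SD, n = 4 each).

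The study also took lists of Bergmann glia and astrocyte genes from published single-cell data, which hold 1 and 2 of the 10 marker genes. Of 153 Bergmann glia genes tested, 10 were lower and 5 higher on DR, or 9.80% against 3.06% of all genes. Their median log2 fold change was -0.03. Beside Tnc, the collagen gene Col9a2 fell by 0.58 and Gm6277, of which 29.7% of exonic bases overlap another gene, by 0.56 on the log2 scale, and Icosl and the transcriptional repressor gene Bcl6 rose by 0.47 and 0.45. Of 354 astrocyte genes, 16 were lower and 14 higher, or 8.47% against 3.06% of all genes, with a median of -0.01. Etnppl, an enzyme that breaks down phosphoethanolamine, rose from 36.4 ± 4.21 to 67.0 ± 10.3 CPM (SD, n = 4 each, log2 fold change 0.88, edgeR adjusted p = 0.000487), as did Ucp3 (0.95) and Adamts6 (0.66), while Hpgd, which inactivates prostaglandins, fell by 0.77. Several of these list calls were not kept in every fit that left out 1 mouse, and such fits have fewer mice. Of the 8 fits, F3, Gstm1 and Serping1 passed in 1, and Cyp4f14, Kcnj16, Vim, Ucp3 and Hpgd in 2. Ptch1 and Mt1 passed in 3, Icosl and Bcl6 in 4, Fkbp5 in 6, and the other named list genes in all 8.

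Markers of other cell types moved as well, and their part in the values above was not tested. The summed level of 13 Purkinje cell markers was 9007 to 9621 CPM on AL, 7643 to 8810.1 CPM on DR and 8915 to 9169 CPM on KD, with 3 of 13 called lower on DR. Summed levels on DR also lay below AL, without overlap, for oligodendrocyte precursors (98.5 to 110.2 against 121 to 130.0 CPM, 1 of 8 called). The same held for microglia (76.2 to 80.7 against 81.9 to 86.8 CPM), with 0 of 10 called and a median log2 fold change of -0.08. Endothelium and mural cells were also lower (313 to 324 against 331 to 365 CPM, 1 of 12 called). Over all genes, 1.74% were called lower and 1.32% higher on DR than on AL, and 2.43% lower than on KD. Summed levels of oligodendrocyte markers overlapped (2268 to 2801 CPM on DR, 2428 to 3074 CPM on AL), while 2 of 13 of these genes were called lower on DR than on AL and 4 of 13 lower than on KD, with median log2 fold changes of -0.19 and -0.24. Summed levels of interneuron markers overlapped too, with 1 of 12 called higher on DR than on AL, as did those of granule cells, meninges, choroid plexus and blood. No marker on these lists was at 0 in all libraries. Libraries held between 31712084 and 40798644 counts, without a difference in mean total between diets beyond the spread (two-sided exact permutation p = 0.6 for DR against AL, 0.8 for KD against AL and 0.257 for DR against KD), and mitochondrial genes took 3.60% to 4.22%.

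Whether the 10 genes vary together among mice on the same diet was asked from the deviation of each log2 CPM from its diet mean. Of 45 pairs of genes none passed Benjamini-Hochberg adjustment by exact permutation within diets (13824 arrangements, two-sided, n = 12 mice). At an unadjusted p of 0.05, 7 pairs passed. Slc1a3 and S100b had r = 0.79 and rho = 0.80 (exact permutation p = 0.0109 and 0.0103, adjusted p = 0.250 and 0.300), and r was 0.75 without the 2 mice farthest from the median of Slc1a3. Gja1 and Hopx had r = 0.76 and rho = 0.62 (exact permutation p = 0.0130 and 0.0458, adjusted p = 0.250 and 0.300), with r = 0.60 without the 2 mice farthest from the median of Gja1.

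**Figure D5:**
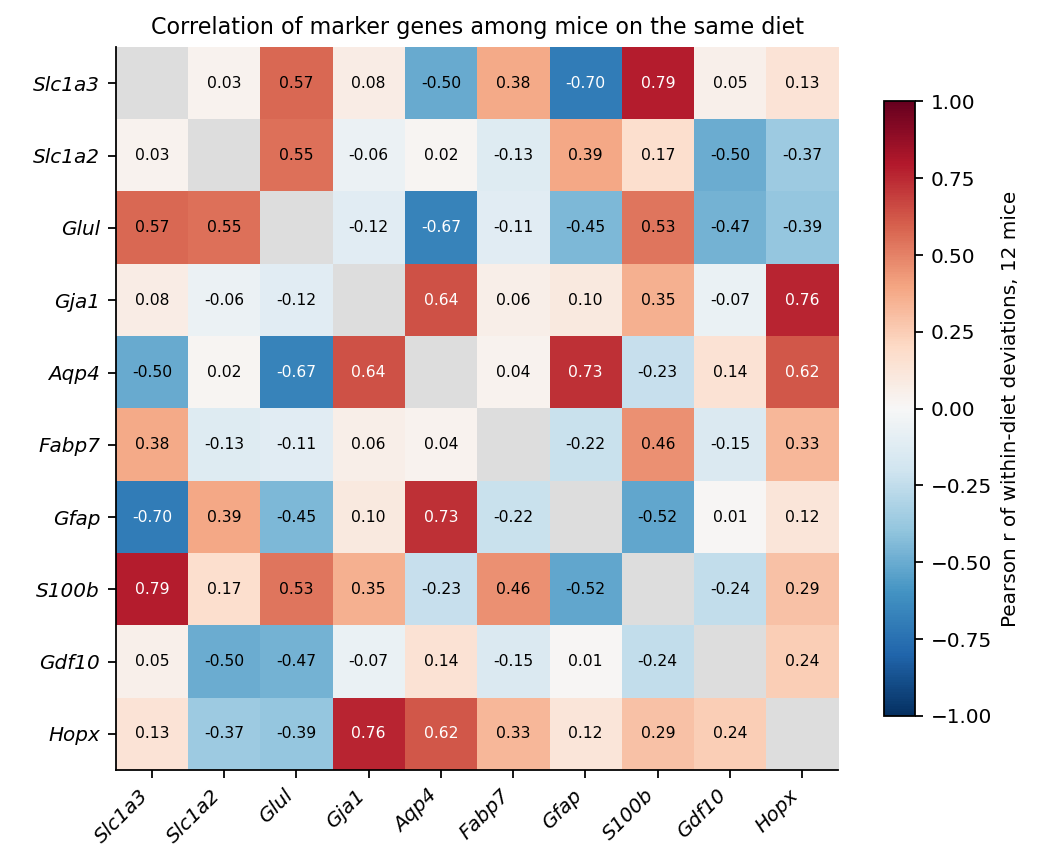
Pearson r between marker genes over 12 mice, each value taken as the deviation of log2 CPM from the mean of its diet; red stands for positive and blue for negative r. Slc1a3 with S100b (0.79) and Gja1 with Hopx (0.76) had the highest values, and no pair passed adjustment over 45 pairs.

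AL and DR mice were killed over a window of hours, and the hours of KD mice are not given in the sources used here. Nr1d1 is a clock gene whose transcript falls in that part of the day, and the deviation of each member from its diet mean was compared with that of Nr1d1 over all 12 mice. No member passed with Nr1d1 after adjustment over 10 genes, while 3 passed at an unadjusted p of 0.05. Glul had r = -0.76 and rho = -0.62 (exact permutation p = 0.0205 and 0.0569, adjusted p = 0.131 and 0.151), and r was -0.59 without the 2 mice farthest from the median of Glul. Aqp4 had r = 0.69 and rho = 0.55 (exact permutation p = 0.0276 and 0.102, adjusted p = 0.131 and 0.204), with r = 0.56 without the 2 mice farthest for Aqp4. Slc1a3 had r = -0.69 and rho = -0.76 (exact permutation p = 0.0394 and 0.0176, adjusted p = 0.131 and 0.151), with r = -0.43 without the 2 mice farthest for Slc1a3. Taken by diet, r of Slc1a3 was 0.22 on AL and -0.99 on both DR and KD, while r of Glul and of Aqp4 kept its sign. Nr1d1 itself was at 113 to 156 CPM on AL, 76.6 to 135 CPM on DR and 84.5 to 127 CPM on KD, and DR replicate 2 had the highest level of the DR mice. The part of the hour in the diet values was not tested.

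As a description over 12 mice and 10074 genes of at least 10 CPM, the genes most like a member in these deviations were Cast for Aqp4 (r = 0.97), Nifk for S100b (0.97), Ankrd12 for Gfap (0.96), Zfp60 for Hopx (0.96), Fbxo44 for Gdf10 (0.95), Cflar for Slc1a2 (0.95), Coa5 for Fabp7 (0.94), Dpy19l3 for Glul (0.93), Saraf for Slc1a3 (0.92) and Sec24a for Gja1 (0.92). The points share libraries and depth, and no test was made of these values.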

How the data were processed

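The authors sequenced poly(A) RNA from TruSeq RNA V2 libraries, removed adaptors with Trimmomatic 0.39, aligned reads with STAR 2.7.0f to GRCm38.p6 with a GENCODE annotation and counted them with featureCounts of Subread 1.6.4, and they deposited raw counts for 54752 genes in 12 libraries, without normalization. Whether counting used strand is not given in the sources used here. Diets were taken from the labels, and replicate numbers follow the order of the samples and pair no mice. Symbols were matched for 54723 genes from a GENCODE annotation of the same assembly.

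From the counts, each pair of diets was tested on its own 8 libraries with filterByExpr (minimum count 10, minimum total 15), TMM scaling and edgeR 4.0.16 (quasi-likelihood test, R 4.3.3), and p was adjusted over all genes tested by Benjamini-Hochberg, with 0.05 as threshold. Intervals used the t distribution of that fit. CPM used TMM factors of all 12 libraries, and log2 CPM a prior count of 2. RPKM used the exonic length in the table. Deviations from diet means were correlated with two-sided exact permutation within diets. The procedure was tested on simulated counts. Alternatives were RLE scaling, library size alone, no filter, a mean above 10 CPM, all 12 libraries in one fit, DESeq2 1.42.0 and leaving out each mouse. Within diets, the 18 pairs of libraries differed beyond sampling noise (chi-square per gene 4.95 to 11.6), so none is a repeat.

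The 10 genes and all lists were chosen with earlier results of these data known. From the lists, genes were named that passed against AL at a mean of at least 1 CPM, up to 6 a role list and 5 a study list by size of change. Some genes are not reported here. Nothing tells whether mice shared a litter or cage, so p-values measure the spread between these mice.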

Additional observations from a re-analysis of the deposited data

Results flagged for a closer look

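Each gene and diet was searched for a mouse that stood apart from the other 3 on that diet by Dixon's ratio at the 95% level, in 33 groups of 4 mice, of which chance flags about 1 in 20. DR replicate 2 stood apart for Aqp4, at 154 CPM against 130.4 to 131 CPM in the other DR mice. AL replicate 2 stood apart for Hopx, at 90.4 CPM against 75.0 to 76.4 CPM in the other AL mice. Both calls of DR against AL held without these mice, and no cause was tested.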

How the results depend on the processing

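Against AL, 4 members were called on DR with RLE scaling, library size alone and a mean above 10 CPM, 6 with DESeq2 or all 12 libraries, which add Slc1a3 and Glul, and 7 without a filter, which adds S100b too; leaving out 1 mouse gave 3 to 4. DR against KD gave 4 to 6 members over these settings and 3 to 5 with 1 mouse left out, and KD against AL gave 0 throughout. Called genes against AL numbered 583 on DR, 1258 without a filter, 1012 with DESeq2 and 235 to 712 with 1 mouse left out. On KD they numbered 0, 118 without a filter, 10 with DESeq2 and 0 to 6 with 1 mouse left out. DR against KD had 942, 1503 without a filter and 467 to 946 with 1 mouse left out. Over all astroglial, reactive and study lists, calls on DR against AL numbered 52, 102 without a filter and 25 to 54 with 1 mouse left out. On KD they numbered 0, 14 without a filter, 2 with DESeq2 and 0 to 1 with 1 mouse left out, and for DR against KD 80, and 45 to 82 with 1 mouse left out. With library size alone the share of lower calls moved from 56.8% to 43.0% against AL and from 49.2% to 37.9% against KD, as the median of all genes moved from 0.0036 to 0.025 and from 0.0024 to 0.022. No call reversed. Values near 0 did: Slc1a2 in DR against KD (-0.02) was 0.0016 with library size alone and -0.038 to 0.00035 with 1 mouse left out, Gdf10 there -0.058 to 0.0015, and on KD against AL Gfap -0.039 to 0.038 and S100b -0.0069 to 0.050. Spearman's rho, added for Nr1d1 after seeing the data, gave 0 calls, as did Pearson's r. No paired analysis was possible because the labels give no replicate numbers shared between diets. The cause of these shifts was not tested. With 4 mice a diet, where a member did not pass, its 95% interval gives the changes that these data leave possible.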

Other observations

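DR replicate 2 was at an end of the DR range for several astroglial genes. It had the highest DR level of Aqp4 (154 CPM), Gfap (61.2 CPM), Gdf10 (151 CPM), Vim (128 CPM), Tnc (16.4 CPM) and the clock gene Nr1d1 (135 CPM), and the lowest of Slc1a3 (1121 CPM), Glul (948 CPM), S100b (232 CPM), Sparc (883 CPM), Itih3 (119 CPM) and Mt1 (300.4 CPM). This mouse and these genes were picked after their values were seen, so the list is a description and carries no test. In a group of 4 mice any mouse is highest or lowest for many genes, and the share over all genes was not counted. Slc1a2, Gja1, Fabp7 and Hopx had neither their highest nor their lowest DR level in this mouse.

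Hopx and Hopxos overlap on opposite strands, and Hopxos was at a mean of 1.08 CPM on AL, 0.671 CPM on DR and 1.13 CPM on KD, against 79.3, 57.4 and 70.6 CPM for Hopx. Teddm2 and Gm13872, which overlap Glul and Slc1a2 by less than 4% of exonic bases, were counted at means of at most 0.948 and 0.0144 CPM.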
